A study of Homo sapiens with 36 samples.

Results

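The comparison set the light polysome fraction (named Polysome1 in the labels) of wild-type cells against the disome fraction of the same cultures. It used 6 of the 36 libraries of the series, 3 WT Polysome1 and 3 WT disome libraries, matched by culture number, and the 8777 transcript IDs that reached 10 TPM in at least 3 of those 6 libraries, out of 223367 in the table. TPM is an abundance unit scaled so that each library sums to 1000000, and it keeps no record of sequencing depth. The depth behind each value is therefore unknown.

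The cells were of the human embryonic stem cell line HUES6, labelled wild type (WT) in the groups compared and grown in FTDA medium. All cultures, the WT ones and those carrying an RBPMS knockout (KO), received cycloheximide at 100 ng/ml for 5 min, which holds ribosomes on their mRNAs. RNA was extracted with Trizol and made into stranded mRNA libraries. TPM gives the make-up of a fraction, and how much RNA each fraction held is not read from it. The sample descriptions carry a number beside the genotype (WT1, for example), which is called the culture here. Nothing in the labels says whether the numbered samples were grown separately, and the p-values measure only the spread between them.

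A ribosome gradient sorts mRNAs by how many ribosomes they carry. The disome peak holds mRNAs with a pair of ribosomes and light polysomes hold those with a few more, next to heavy polysomes, where the most densely loaded mRNAs run. The number of ribosomes on an mRNA is set by how often translation starts, how fast ribosomes move and how long the coding sequence is, so short or poorly initiated mRNAs sit in light fractions even while they are translated. In stem cells, mRNAs can move between these fractions without a change in their total level. Neighbouring fractions are cut from a continuous profile and share most of their mRNAs.

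The table lists transcripts without gene names, and of the 59792 genes available for naming, 0 carried an Ensembl ID. Matching to genes was therefore not possible. The 22 gene lists and 4 marker lists drawn up for this comparison were not analysed here, and the pluripotent identity of the cells was taken from the labels. Transcripts are given by ID. Among the 8777, 505 shared every one of their 36 values with a further transcript, so they are not separate measurements.

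The disome libraries resembled each other less than the Polysome1 libraries did. Across the 8777 transcripts, which are not independent, Pearson's r of log2(TPM + 1) between cultures was 0.852 to 0.898 in WT Polysome1 and 0.722 to 0.832 in WT disome. Among the 18 WT libraries, the disome libraries of cultures 1 and 2 were nearest to Polysome1 of their own culture (r = 0.913 and 0.920). The disome library of culture 3 was nearest to the 80S library, the single-ribosome fraction, of its own culture (r = 0.934), and its r with Polysome1 of culture 3 was 0.707. This library also held fewer transcripts, 24532 at 1 TPM or more, against 36186 and 31058 in disome of cultures 1 and 2. Polysome1 of cultures 1, 2 and 3 held 32303, 29759 and 31212. The WT 40S library of culture 3, which enters the fit, also stood apart from the other 40S libraries (r = 0.634 and 0.613). WT disome replicate 3 thus stood apart from its group, and values without it or its culture are given beside the results below.

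**Figure D1:**
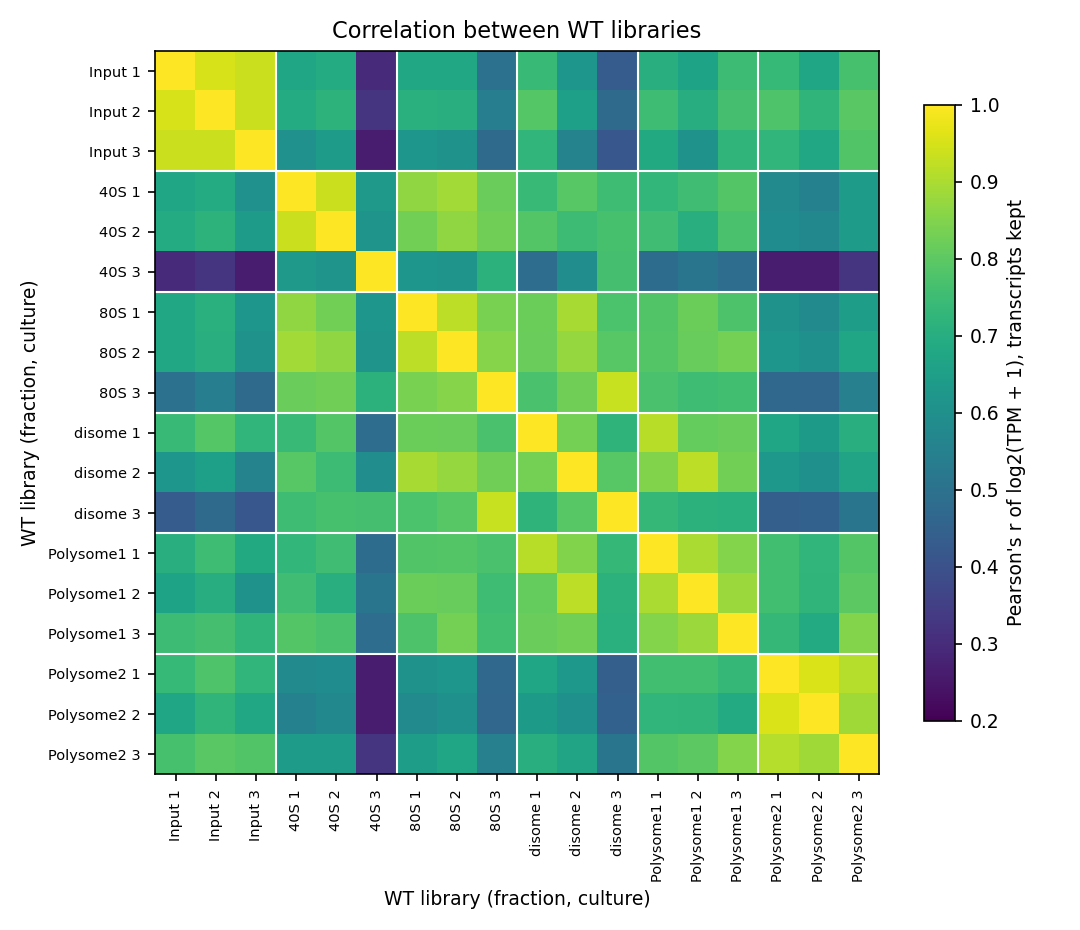
Pearson's r of log2(TPM + 1) over 8777 transcripts between all 18 WT libraries, in gradient order on both axes. Disome of cultures 1 and 2 is closest to Polysome1 of the same culture (0.913 and 0.920), and disome of culture 3 is closest to 80S of culture 3 (0.934).

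The most abundant transcripts took a smaller part of light polysomes. The 10 most abundant made up 7.27%, 6.74% and 8.80% of Polysome1 of cultures 1, 2 and 3, against 10.5%, 9.37% and 13.6% of disome. Polysome1 was lower in each of the 3 pairs and the groups did not overlap. The exact paired permutation p was 0.25 (two-sided), the smallest that 3 pairs can give. For the 100 most abundant the means were 29.3% ± 2.70 in Polysome1 and 33.9% ± 7.36 in disome (SD, n = 3 each), with the same exact p of 0.25 and overlap between the groups. In cultures 1 and 2 alone the means were 7.01% in Polysome1 and 9.93% in disome for the top 10, and 27.8% and 29.6% for the top 100.

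Only 2 of the 8777 transcripts passed the test, and both were higher in light polysomes. This is 0.0228% of the transcripts tested (limma with culture as a block, Benjamini-Hochberg adjusted p under 0.05), and 0 were lower (0.0%). At an unadjusted p under 0.05 there were 952, of which 625 were higher and 327 lower. Both called transcripts had been kept through the 3 Polysome1 libraries alone, with no disome library at 10 TPM, so they had to differ to be tested. Among the 4676 transcripts at 10 TPM in all 6 libraries, limma called 0, with 415 at an unadjusted p under 0.05. The spread of each transcript was estimated from all 18 WT libraries, with 10 residual degrees of freedom. With only the 6 libraries compared, limma with the same block called 0 transcripts, with 1493 at an unadjusted p under 0.05. Without the WT 40S libraries there were 16 higher and 16 lower, without culture 3 there were 3 and 18, and without WT disome replicate 3 alone 3 and 1. The split depended on scaling, with 21 higher and 83 lower after quantile normalization. In simulated data with the spread of the 18-library fit, 50 transcripts were changed at each size. A log2 change of 1 was recovered for 2.0% of them, a change of 2 for 60% and a change of 4 for 90%. Differences of about 2-fold were thus mostly not detectable in that setting. The simulation drew independent noise with 1 spread per transcript, and held no library that stood apart.

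ENST00000369387.4 was present in light polysomes and listed at 0 in the disome fraction. It had 51.6, 287.7 and 295.4 TPM in Polysome1 of cultures 1, 2 and 3, and was listed at 0 in all 3 disome libraries (limma adjusted p = 0.00155). Its direction in the 3 cultures was fixed by the filter, which kept it through Polysome1 alone. It was also listed at 0 in the 3 WT 80S libraries, at 6.80, 0 and 0 TPM in 40S, and at 521, 179 and 585 TPM in Polysome2, the heavy polysome fraction. Unfractionated WT Input held 499, 363 and 244 TPM. Among the WT gradient fractions it was thus found in both polysome fractions and, at a low level, in 1 of the 40S libraries. The call ended in 4 of 14 other settings: with only the 6 libraries fitted, with or without the block (limma adjusted p = 0.236 and 0.0681), and without culture 2 or culture 3 (limma adjusted p = 0.433 and 0.0603).

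ENST00000526811.4 was likewise present in WT Polysome1 and listed at 0 in WT disome. A listed 0 is the value of that transcript ID alone, and other transcripts of its gene could not be read without gene names. Polysome1 held 104.3, 177 and 121.4 TPM in cultures 1, 2 and 3, and the transcript was listed at 0 in all 3 disome libraries (limma adjusted p = 3.8e-05). It too was kept through Polysome1 alone, so its direction in the 3 cultures was fixed by the filter. The WT 80S libraries listed 0, 0 and 3.20 TPM, Polysome2 146.7, 101 and 46.4 TPM, and Input 30.8, 46.7 and 33.7 TPM. Its Polysome1 values lay above all of its Input values. The call ended with only the 6 libraries fitted and the block (limma adjusted p = 0.118) and without culture 2 (limma adjusted p = 0.0820). These 2 were the only transcripts at 10 TPM or more in all 3 Polysome1 libraries and at 0 in all 3 disome libraries, and no fold is given for them, since the size of a change against a listed 0 depends on the value added before taking logs. The reverse pattern was found for 0 transcripts.

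No transcript passed the test as lower, so the lower direction is shown by the 2 transcripts with the largest mean difference among the 694 that were lower in all 3 cultures with at least 30 TPM in disome. They were chosen after their values were seen. ENST00000562929.1 had 0.103, 37.3 and 0 TPM in Polysome1 of cultures 1, 2 and 3, against 29.7, 151 and 346 TPM in disome. The lowest disome value lay below the highest Polysome1 value, so the groups overlapped, and the log2 difference was -5.08 (SE 1.71, limma adjusted p = 0.385). In WT 80S it had 63.2, 12.6 and 167 TPM and in Polysome2 1.70, 3.66 and 7.76 TPM. WT Input listed only 1.60, 0 and 0 TPM, below all of its disome values, and WT 40S 2.11, 0.940 and 396 TPM.

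ENST00000618786.1 had 0, 9.03 and 0.0563 TPM in Polysome1, against 47.9, 38.3 and 87.1 TPM in disome. It had been kept through the 3 disome libraries alone, with no Polysome1 library at 10 TPM, so its groups could not overlap. The log2 difference was -4.65 (SE 0.90, limma adjusted p = 0.168). Polysome2 held 43.6, 32.9 and 20.8 TPM, all above the 3 Polysome1 values, which had entered the choice of this transcript, so no test is given. WT 40S held 58.9, 384 and 450 TPM and Input 156, 65.1 and 56.0 TPM, with 40S above Input in cultures 2 and 3 and below it in culture 1.

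**Figure D2:**
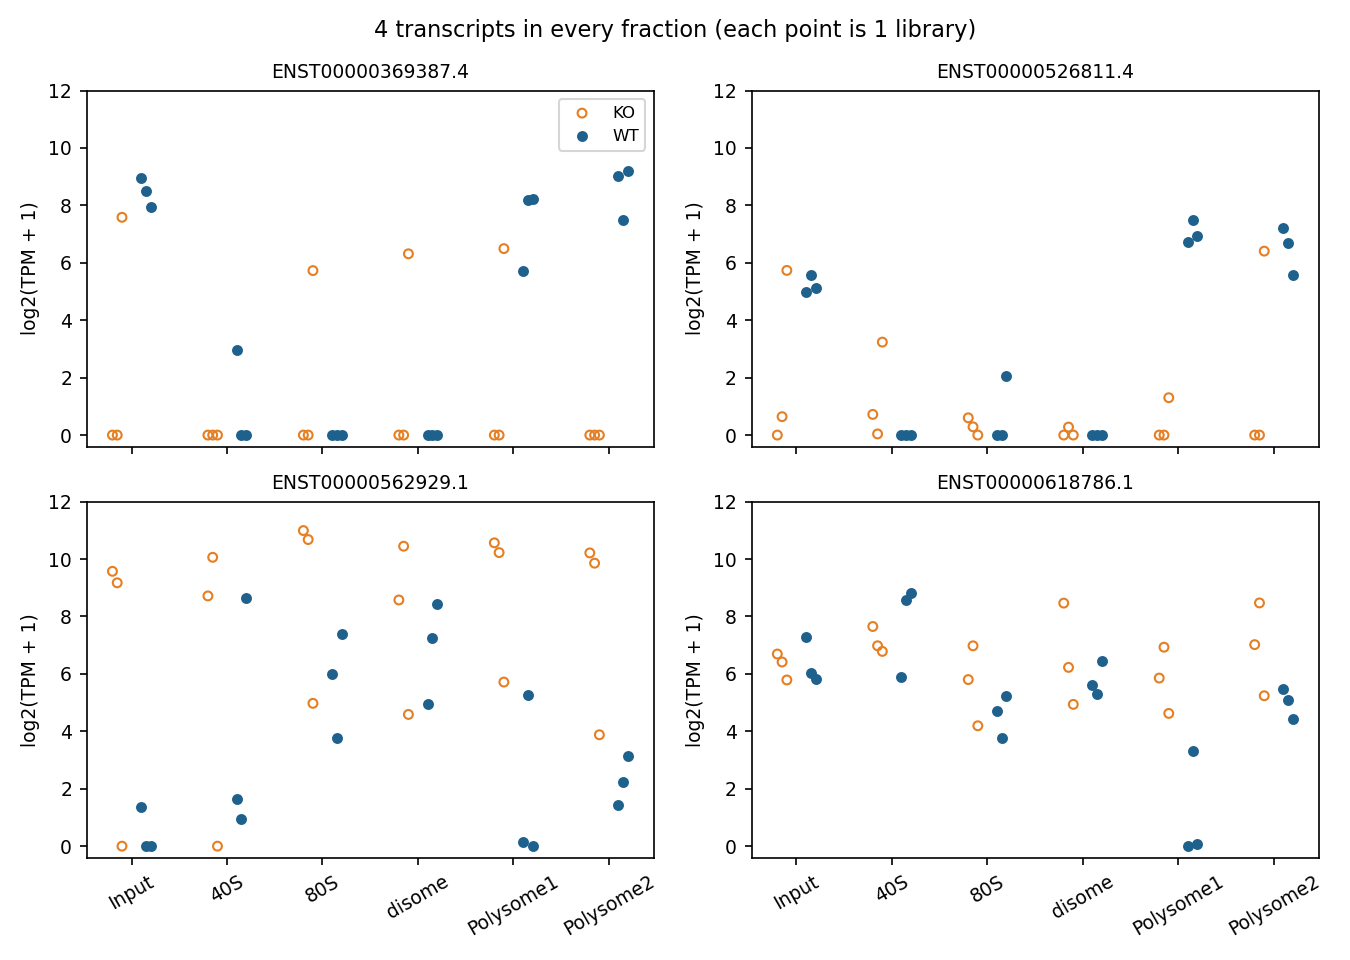
Level of the 4 described transcripts, as log2(TPM + 1), in every library by fraction, with KO as open points left of WT as filled points. The upper 2 are at 0 in all WT disome libraries and present in all WT Polysome1 and Polysome2 libraries. The lower 2 have 29.7 to 346 and 38.3 to 87.1 TPM in WT disome, and at most 37.3 and 9.03 TPM in WT Polysome1.

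The differences of single cultures showed how much culture 3 set the picture. On the log2(TPM + 1) scale, the median difference between Polysome1 and disome was 0.07 in culture 1, 0.09 in culture 2 and 0.60 in culture 3, and the SD over transcripts was 0.70, 0.69 and 1.53. A difference of 2-fold or more in favour of Polysome1 was seen for 407 transcripts in culture 1, 380 in culture 2 and 3008 in culture 3. In the other direction the numbers were 403, 518 and 835. Over all 3 cultures the median was 0.28, and it was 0.09 without culture 3. Differences of cultures 1 and 2 correlated at r = 0.438 across transcripts, those of cultures 2 and 3 at 0.405 and those of cultures 1 and 3 at 0.069, which describes the 8777 transcripts and is no test.

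The mean over the 3 cultures hid opposite orders by abundance. In 5 bins of equal size by the mean TPM over the 6 libraries, the median of the fitted difference lay between 0.25 and 0.30. The most abundant bin, from 72.3 TPM upwards, had medians of 0.18, 0.13 and 0.44 in cultures 1, 2 and 3, and the lowest bin had 0.02, 0.05 and 0.70. The most abundant bin thus had the larger median of these 2 bins in cultures 1 and 2, and the smaller in culture 3. Of the transcripts kept, 4676 reached 10 TPM in all 6 libraries, while 86 did so in the 3 Polysome1 libraries and no disome library, and 68 in the 3 disome libraries and no Polysome1 library. The filter kept 1052 transcripts with exactly 3 libraries at 10 TPM and left out 1642 with exactly 2. The third highest of the 6 values decided this, and it was 10.005 TPM in the kept transcript nearest to the threshold and 9.999 TPM in the nearest one left out.

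Differences in the same direction in every culture were common, and those of 2-fold or more were few. In all 3 cultures 3228 transcripts were higher in Polysome1 and 1257 lower, by any amount. The 3 Polysome1 values lay above the 3 disome values without overlap for 1365 transcripts (15.6%) and below them for 520 (5.92%). In cultures 1 and 2 alone, 3780 were higher and 2598 lower in both, and 2386 lay above and 1612 below without overlap, over fewer libraries. All of these counts were made on TPM, where the median difference of all transcripts was itself 0.28 (0.09 without culture 3). None of them was repeated with another scaling. A difference of at least 2-fold in each of the 3 cultures was found for 76 transcripts higher in Polysome1 (0.866%) and 74 lower (0.843%). These are counts of size, not calls. Their balance depends on the scaling: after median-of-ratios scaling, which moved the median of all transcripts to 0.10, they were 38 and 120, and after quantile normalization, with a median of 0.08, they were 80 and 233. Of the 76, 18 had been kept through 1 group alone, as had 13 of the 74, and among transcripts at 10 TPM in all 6 libraries the counts were 32 and 33.

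**Figure D3:**
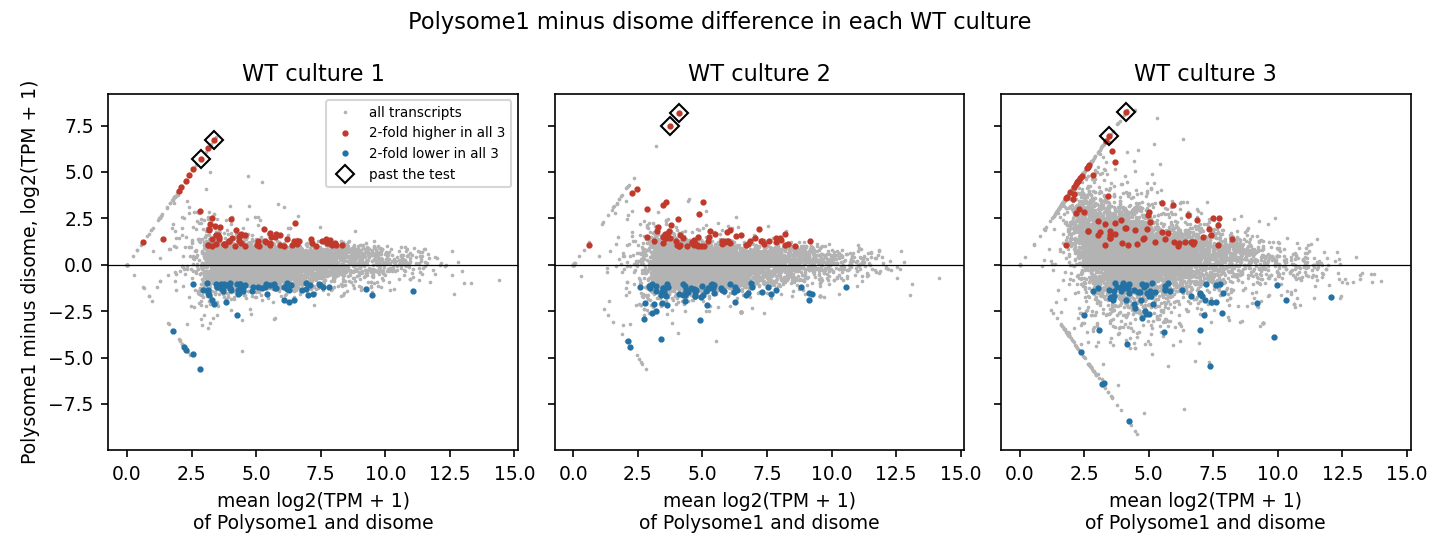
Polysome1 minus disome difference of each of 8777 transcripts (y axis, log2(TPM + 1)) against its mean level (x axis) in each WT culture. Culture 3 is wider (SD 1.53, against 0.70 and 0.69), and the coloured points are the 76 and 74 transcripts at least 2-fold apart in every culture.

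The 76 and 74 transcripts were then followed in WT fractions that had no part in choosing them. The median level of the 76, on the log2(TPM + 1) scale, was 3.18, 3.34 and 3.14 in 80S of cultures 1, 2 and 3, and 5.55, 5.06 and 5.65 in Polysome2. That of the 74 was 5.38, 4.99 and 5.76 in 80S, and 2.62, 2.47 and 2.92 in Polysome2. The higher list was thus low at the single-ribosome end of the gradient and high at the heavy end, and the lower list the reverse. Over all 8777 transcripts the medians were 4.01, 4.0 and 4.02 in 80S and 4.72, 4.63 and 4.66 in Polysome2. In Input the mean profile of the higher list had a median of 4.65 and that of the lower list 3.85, against 4.25 over all.

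In Polysome2 against 80S, 47 of the 76 passed the test as higher and 0 as lower (limma adjusted p under 0.05), where 36.4% of all transcripts were called higher. Of the 74, 68 were called lower and 0 higher, where 16.0% of all were called lower. The median log2 difference was 2.12 for the 76 and -3.11 for the 74, against 0.69 over all. Without the transcripts kept through 1 group alone, 32 of 58 were called higher, against 36.3% of all such transcripts, and 57 of 61 lower, against 15.6%. Polysome2 and 80S libraries come from the same 3 cultures as the disome and Polysome1 libraries, so a feature of a culture is shared between them. The spread behind these calls also came from all 18 WT libraries, among them those used to choose the lists. How far this changed the counts was not tested. With culture 3 left out of both the choice and the fit, the lists held 124 and 173 transcripts. Of the 124, 90 were called higher in Polysome2 (43.6% of all) and 2 lower. Of the 173, 152 were called lower (21.7% of all) and 1 higher. Without culture 1 it was 100 of 247 higher (17.5% of all) and 117 of 242 lower (7.98% of all), with 0 the other way. Without culture 2, 57 of 169 were called higher (14.9% of all) and 1 lower. Of the other 124, 91 were called lower (7.75% of all) and 0 higher.

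**Figure D4:**
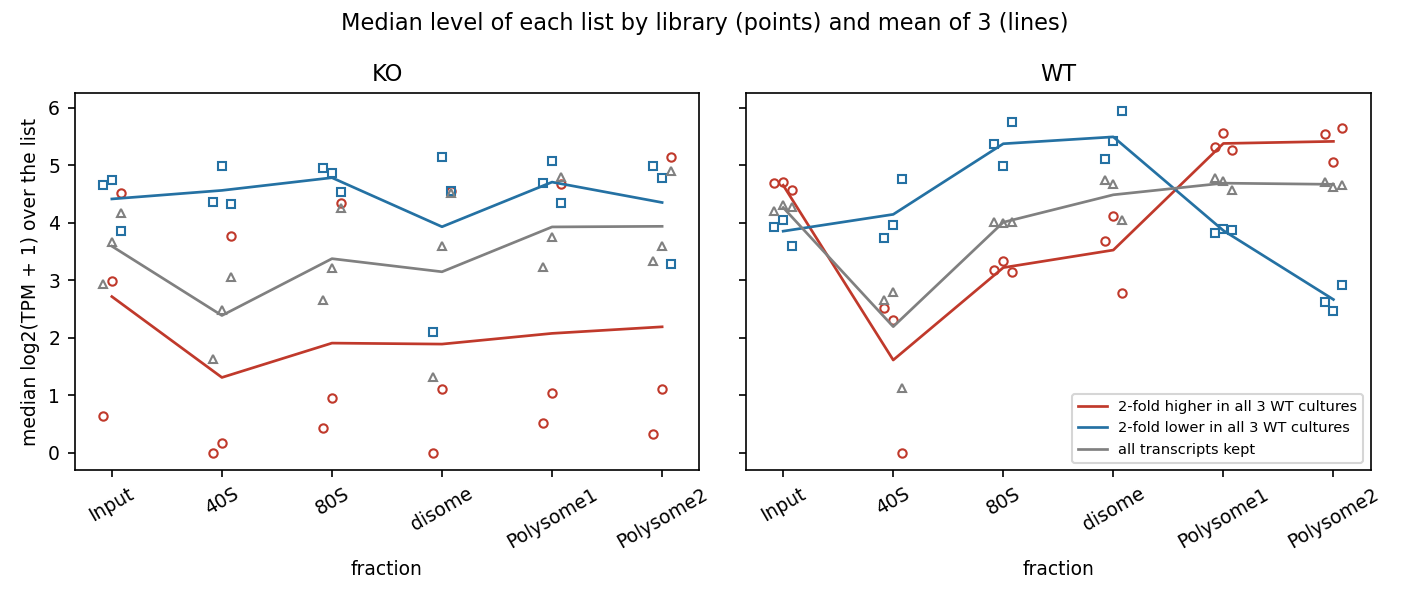
Median log2(TPM + 1) of the 76 higher, the 74 lower and all 8777 transcripts in each library (points) and the mean of 3 libraries (lines), by fraction, in KO and WT. In WT the lists cross between disome and Polysome1, where they were chosen, and stay apart in Polysome2 (5.06 to 5.65 against 2.47 to 2.92).

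Lists chosen by the 2-fold rule in 2 cultures were also read in the culture not used for that choice. The filter of 10 TPM used libraries of all 3 cultures, so the culture read had a part in which transcripts were kept. Transcripts kept through 1 group alone were not removed from these lists. Chosen in cultures 1 and 2, the 124 higher transcripts had a median Polysome1 minus disome difference of 1.25 in culture 3, against 0.60 over all transcripts, and 84.7% of them were higher, against 71.5% of all. The 173 lower ones had a median of -0.80 in culture 3, and 83.2% were lower, against 28.5% of all. Chosen in cultures 2 and 3 and read in culture 1, 247 higher transcripts had a median of 0.71 and 242 lower ones -0.61, against 0.07 over all. Of the higher ones 78.5% were higher, against 56.1% of all, and of the lower ones 81.4% were lower, against 43.8% of all. Chosen in cultures 1 and 3 and read in culture 2, 169 higher ones had a median of 0.94 and 124 lower ones -1.17, against 0.09 over all. Of the higher ones 91.1% were higher, against 57.3% of all, and of the lower ones 91.9% were lower, against 42.6% of all. The median of each lower list lay below 0 in the culture it had not been chosen in, where that of all transcripts was above 0. For the higher lists the side of 0 says little, since the median of all transcripts was above 0 too. Each higher list had a larger median than all transcripts. Transcripts are not replicates, and no p is given for these lists.

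**Figure D5:**
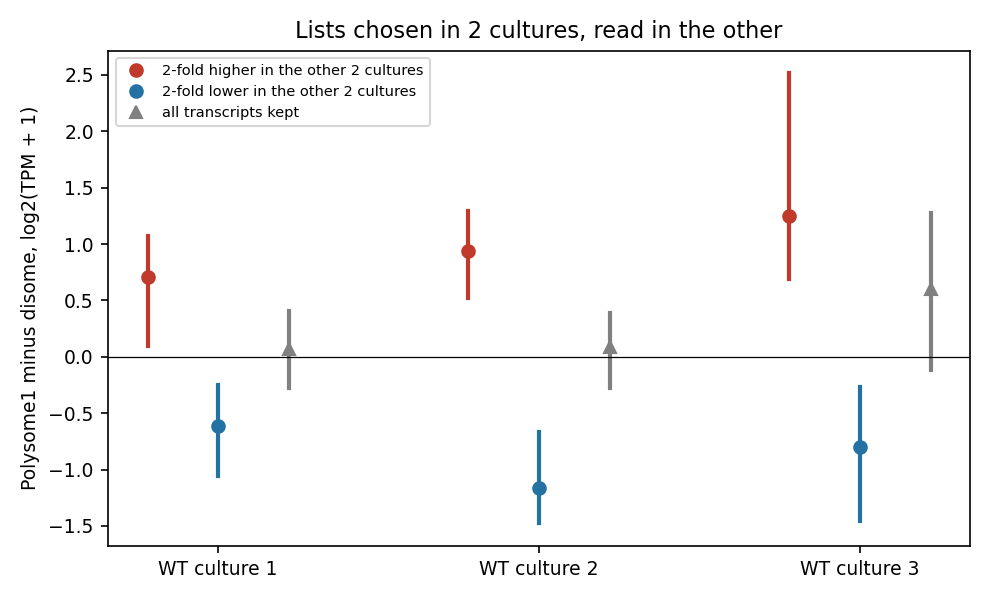
Polysome1 minus disome difference (log2(TPM + 1)) in each WT culture for lists chosen as 2-fold higher or lower in the other 2 cultures, and for all transcripts. Points are medians and bars run from the 25th to the 75th percentile. The higher lists have medians of 0.71, 0.94 and 1.25 and the lower lists -0.61, -1.17 and -0.80 in cultures 1, 2 and 3.

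The step between disome and light polysomes was next set beside its neighbours along the gradient. Among the same 8777 transcripts, WT Polysome2 against WT Polysome1 gave 609 higher (6.94%) and 1424 lower (16.2%), and WT disome against WT 80S gave 0 in either direction (limma, 1667 at an unadjusted p under 0.05). The count of 0 did not hold without WT disome replicate 3, where limma called 724 higher and 11 lower in disome against 80S. Leaving out culture 3 gave 3498 and 277. That setting also drops the culture 3 libraries of every other fraction, so its larger counts cannot be assigned to the disome library. The part played by those other libraries was not tested. Without culture 3, Polysome2 against Polysome1 gave 1744 higher and 2868 lower. These comparisons share libraries with Polysome1 against disome, and their counts are given side by side only. The SD of the fitted log2 differences over transcripts was 0.73 for Polysome1 against disome, 0.62 for disome against 80S and 1.16 for Polysome2 against Polysome1, with the same median SE of 0.47. Without WT disome replicate 3 these SDs were 0.62, 0.77 and 1.16, so Polysome1 against disome had the smallest of the 3 without it and the middle one with it. The mean of Polysome1 lay between those of disome and Polysome2, ties included, for 5556 of the 8777 transcripts (63.3%). In cultures 1 and 2 alone it was 60.0% with ties left out, so these shares were not counted by the same rule.

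The same fractions of the RBPMS knockout cultures gave no call. KO Polysome1 against KO disome, on the same transcripts, had 0 higher (0.0%) and 0 lower (limma, 1159 at an unadjusted p under 0.05). KO culture 3 stood apart from KO cultures 1 and 2 in every fraction, with r between libraries of 0.605 and 0.659 in Polysome1 and 0.632 and 0.625 in disome, against 0.930 and 0.842 between cultures 1 and 2. Without KO culture 3 the KO comparison also gave 0 calls (limma, 1072 at an unadjusted p under 0.05). KO disome replicate 1 also stood apart, with 70.5% of its TPM in its 10 most abundant transcripts and 9867 transcripts at 1 TPM or more. The median difference was 1.84 in KO culture 1, against 0.04 and 0.26 in KO cultures 2 and 3. The 74 transcripts of the lower WT list had medians of 2.34, -0.20 and -0.34 in KO cultures 1, 2 and 3, and 39 of them were lower in both KO culture 2 and KO culture 3, as were 1207 of all 8777. The 76 of the higher list had medians of 0.38, 0.00 and 0.22, and 26 of them were higher in both, as were 3757 of all. In KO cultures 1 and 2 the higher list was near the bottom of the scale, with median levels of 0.52 and 1.04 in Polysome1 and 0.00 and 1.11 in disome. In KO culture 3 they were 4.67 in Polysome1 and 4.56 in disome.

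The difference between genotypes was tested directly. For the KO against WT difference of the Polysome1 against disome change, 0 of 8777 transcripts passed (limma interaction term, 807 at an unadjusted p under 0.05). Without WT disome replicate 3 it was also 0, with 653 at an unadjusted p under 0.05. ENST00000369387.4 was listed at 0 in KO cultures 1 and 2 in both fractions, and had 89.1 TPM in Polysome1 and 78.5 TPM in disome of KO culture 3 (interaction limma adjusted p = 0.255). In KO culture 3 it had 52.0 TPM in 80S and was listed at 0 in Polysome2, the reverse of its WT values in these fractions. ENST00000526811.4 had 0, 0 and 1.46 TPM in KO Polysome1 and 0, 0.213 and 0 TPM in KO disome (interaction limma adjusted p = 0.158). In KO Polysome2 it had 0, 0 and 83.8 TPM. Without KO replicate 3, these 2 transcripts passed the interaction test. In the 2 remaining KO cultures both were below 1 TPM in both fractions, so that result sets a WT difference against no measurable level.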

How the data were processed

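The deposited values were TPM per versioned Ensembl transcript, made by the authors with kallisto and sleuth on hg19, per the submitters' processing notes; versions are not given in the sources used here. Columns were matched to samples by the sample descriptions, which name genotype, culture and fraction, and 0 columns stayed unused. The 92 ERCC spike-in rows were set aside. Transcripts with 10 TPM or more in at least 3 of the 6 libraries compared were kept. Values were transformed as log2(TPM + 1) and fitted with limma 3.58.1 in R 4.3.3, with 6 fraction means, WT culture as a block and a variance trend, on the 18 WT libraries. Adjustment over all 8777 transcripts followed Benjamini and Hochberg, with a threshold of 0.05. KO was fitted likewise, and the genotype difference in all 36 libraries. The number beside the genotype in the descriptions was taken as the culture and used as the pairing; deviations from the group means of same-numbered Polysome1 and disome libraries correlated at 0.37, 0.55 and 0.09, so the data show little pairing for culture 3. Planned gene lists and protein lengths could not be used without gene names. Described transcripts were the 2 largest changes per direction past the threshold, with the same sign in every culture and 30 TPM in the higher group; none was lower. The comparison, lists and tests were chosen with earlier results of these data known. The fit was tested on simulated data with 200 changed transcripts. Exact permutation tests used scipy 1.17.1 in Python 3.11.15.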

Additional observations from a re-analysis of the deposited data

How the results depend on the processing

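The median log2 difference over all transcripts kept its sign in all 15 other settings (0.08 to 0.36). The 2 higher and 0 lower calls became 16 and 16 without the 40S libraries, 5 and 1 with all 36 libraries and a replicate block, 11 and 5 with a pseudocount of 5, 12 and 4 with a filter of 1 TPM, 21 and 83 after quantile normalization (20.2% higher, against 100% in the reported fit), and 0 and 0 with 10 TPM in all 6 libraries, a filter that removes both called transcripts. With the replicate block and the 6 libraries alone no transcript was called higher (0), and without the block there was 1, while without the block in the 18 libraries there were 2. Leaving out each culture gave 0 to 3 higher and 0 to 18 lower; the 18 came without culture 3 and the 0 higher without culture 2. Without WT disome replicate 3 alone, chosen after seeing the data, 3 were higher and 1 lower. The causes were not tested. KO counts stayed at 0 in 5 settings, and the genotype difference gave 0 to 2 without each KO culture, the 2 without KO replicate 3.

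The 2-fold lists of 76 and 74, whose settings were all chosen after seeing the data, were 47 and 35 with a pseudocount of 5, 206 and 194 with a filter of 1 TPM, 32 and 33 with 10 TPM in all 6 libraries, 38 and 120 after median-of-ratios scaling, and 80 and 233 after quantile normalization. Leaving out 1 culture, which asks for 2 cultures in place of 3, gave 124 to 247 higher and 124 to 242 lower. In Polysome2 against 80S, 61.8% of the higher list was called higher, against 36.4% of all transcripts. Without each culture it was 33.7% to 72.6%, against 14.9% to 43.6% of all. Of the lower list 91.9% was called lower, against 16.0% of all, and without each culture 48.3% to 87.9%, against 7.75% to 21.7%. TPM keeps no depth, so how depth limits these values is unknown. Gene sums were not run, since no transcript has a gene name.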

Other observations

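Among the 18 KO libraries, each of the 6 KO Polysome1 and KO disome libraries was nearest to a library of its own culture. WT libraries were not part of this search. Across the 8777 transcripts, r between Polysome1 and disome of the same KO culture was 0.871, 0.972 and 0.940 in cultures 1, 2 and 3. KO disome of cultures 1 and 3 was nearest to 80S of its own culture (r = 0.873 and 0.957), and KO disome of culture 2 to Polysome1 of its own culture (r = 0.972). ENST00000562929.1, which was low in WT Polysome1, had 1513, 1195 and 51.5 TPM in KO Polysome1 and 380, 1394 and 23.0 TPM in KO disome. KO culture 3 was the lowest of the 3 in both fractions.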
